A study of Mus musculus with 7 samples.

Results

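Annexins and serum amyloid A are protein families that include ligands of Fpr2, the formyl peptide receptor deleted in these mice, and 9 of their genes were followed here in mouse spleen. They were taken by gene symbol: Anxa1, Anxa2, Anxa3, Anxa4, Anxa5, Anxa6, Anxa7, Anxa11 and Saa3, 9 of 55414 genes in the table. All 9 passed the low count filter and were tested. Polyadenylated spleen RNA was sequenced from 4 samples labelled Fpr2KO and 3 labelled WT, whose genotype field reads C57BL/6N. No other allele and no treatment is named for either group. The sources used here give no strain background for the Fpr2KO mice, no account of how the allele was made, and neither age nor sex. They also do not tie libraries to animals, and p-values therefore reflect only library-to-library spread, which may be technical.

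Annexins are cytosolic proteins that bind acidic phospholipids in the presence of calcium through a conserved core of repeats, and each carries its own N-terminal tail. Annexin A1 can leave the cell, and its N-terminal tail acts on formyl peptide receptors in a way known for limiting neutrophil recruitment and for promoting the clearance of apoptotic cells. Serum amyloid A proteins are acute phase proteins that also bind Fpr2. Most are made by the liver, whereas Saa3 is known as the form induced in macrophages and other cells outside it.

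The part of annexin A1 that acts on the receptor lies in the first exons of its coding sequence, and the matching stretch of Anxa2 is shown beside it because the tails, not the cores, set these proteins apart. The tail of annexin A1 also binds the small calcium-binding protein S100A11, and that of annexin A2 binds S100A10. The first 26 codons of each are given 5′ to 3′ from GENCODE M21 transcripts, with the start codon in lower case and codons 2 to 26 in capitals.
Anxa1: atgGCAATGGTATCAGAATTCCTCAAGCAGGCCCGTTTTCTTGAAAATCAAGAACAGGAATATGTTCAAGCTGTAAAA
Anxa2: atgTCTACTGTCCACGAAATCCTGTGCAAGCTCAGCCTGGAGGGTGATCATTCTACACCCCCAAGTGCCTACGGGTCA

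Most of the coding sequences shared no long exact stretch with a transcript of another gene. Untranslated exons were not searched, so whether all reads of these genes could be told apart was not tested. The longest exact run shared by any pair of the 8 annexin coding sequences was 18 bases, between Anxa3 and Anxa11. Gene positions are given on GRCm38 from GENCODE M21. Coding sequences held 320 codons in Anxa4 and Anxa5 and 674 in Anxa6, stop codons included. In 7 of the 8 annexins no stretch of 50 bases in the coding sequence occurred in a transcript of another gene. Anxa11 was the exception, since 46.3% of its 50-base stretches were also found in Anxa11os, which overlaps it on the other strand, or in the pseudogenes Gm2260 and Gm2274 on the same chromosome. Its counts are therefore uncertain, because reads shared with a copy could be left out or assigned to it. Anxa11os had between 5 and 18 reads per library, and the deposited counts hold no entry for Gm2260 or Gm2274. The strand setting of the counting is unknown, so reads from an antisense partner cannot be told apart in the shared exons. For Anxa2 and Anxa4 that partner had at most 15 reads in a library. In Saa3, 9 of 320 such stretches also occurred in Saa1, which had no read.

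Libraries held between 14968605 and 18692809 counts. Fpr2 followed the labels, with 537, 479 and 477 reads in WT replicates 1 to 3 and 0 in all Fpr2KO libraries, at least 181-fold lower with 3 counts per library as the floor. The summed level of 6 B cell marker genes ran from 2878 to 3284 CPM (reads per 1000000 counted, with TMM-scaled library sizes), and that of 8 splenic macrophage genes from 2556 to 3251, so the labelled tissue was seen in each library. Transcripts of the neighbouring pancreas stood out in Fpr2KO replicates 1 and 2, where all 8 acinar genes were above their level in every other library. Their summed level was 553 and 324 CPM there and between 23.6 and 48.9 CPM in the other libraries. The log2 fold change of each of the 9 genes is given with and without both libraries.

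None of the 9 transcripts passed the test between Fpr2KO and WT spleens. In edgeR's quasi-likelihood test 0 of 9 passed at a Benjamini-Hochberg adjusted p under 0.05, against 0.0373% of all 16089 tested genes. DESeq2 and limma-voom also called 0, and 0 had an unadjusted p under 0.05 with any of the 3 tools, where edgeR gave such a p to 4.98% of all genes and to 3.07% with lower values in Fpr2KO. The edgeR adjusted p was 1.0 for each of the 9. For 7 of the 8 annexins, all but Anxa1, the 95% interval of the Fpr2KO level lay within 0.773 to 1.22 times the WT level. The fitted log2 fold change, Fpr2KO minus WT, was below 0 for 8 of the 9, with a median of -0.12. It was below 0 for 51.4% of all tested genes, with a median of -0.00486. The number below 0 was between 6 and 9 over the alternative analyses, and 7 without both libraries with pancreatic transcripts.

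**Figure D1:**
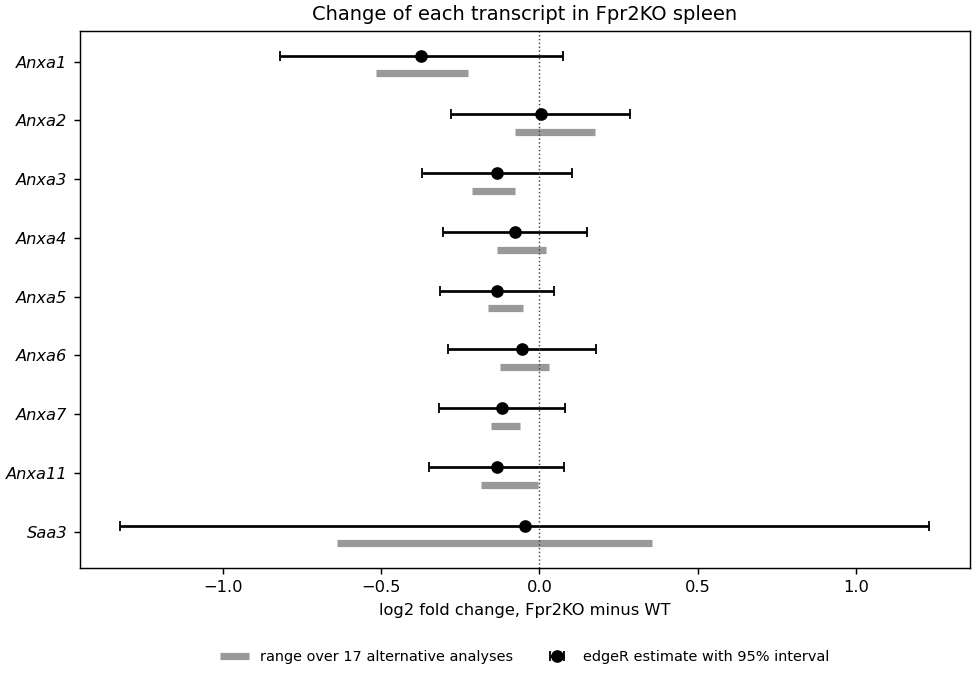
Log2 fold change of each gene, Fpr2KO minus WT (x axis), for the 9 genes (y axis). Black points with bars are the edgeR estimate and its 95% interval, and grey bars are the range over 17 alternative analyses. All 9 intervals include 0, and that of Saa3 is the widest, from -1.32 to 1.23.

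Anxa1 (ENSMUSG00000024659, chr19:20373428-20390944, minus strand) encodes the annexin ligand of Fpr2 and varied more between libraries than the other annexins. It had 156, 235 and 201 CPM in WT replicates 1 to 3. In Fpr2KO replicates 1 to 4 it had 189, 122, 172 and 127 CPM. The groups overlapped: Fpr2KO replicates 1 and 3 lay above WT replicate 1, and the 2 lowest values belonged to Fpr2KO replicates 2 and 4. The mean was 197 ± 39.9 CPM in WT (SD, n = 3) and 152 ± 33.0 in Fpr2KO (SD, n = 4). The log2 fold change was -0.37 (SE 0.19, 95% interval -0.82 to 0.08, edgeR unadjusted p = 0.0912, adjusted p = 1.0). This interval runs from 0.566 to 1.05 times the WT level, so neither an equal level nor a loss of up to 43.4% is outside it. The edgeR unadjusted p was under 0.05 in 2 of 17 alternatives, at 0.0316 when Fpr2KO replicate 1 was left out (-0.48) and at 0.0354 when WT replicate 1 was left out (-0.52). Leaving out WT replicate 2 moved the estimate to -0.23. It was -0.40 without both libraries with pancreatic transcripts.

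Within each group the libraries stood in the same order for Anxa1 and for summed neutrophil transcripts, though not for every neutrophil marker. The summed level of 12 neutrophil marker genes was 3574, 4715 and 3926 CPM in WT replicates 1 to 3 and 2866, 1413, 2171 and 1495 CPM in Fpr2KO replicates 1 to 4. Within each group the library with the highest Anxa1 level also had the highest sum, and the library with the lowest Anxa1 level the lowest. WT replicate 1 lay apart from this order across groups, with less Anxa1 than Fpr2KO replicates 1 and 3 and a higher neutrophil sum. Single markers differed within WT. Mmp8, Mmp9, Retnlg and Cxcr2 were highest in WT replicate 1, at 197, 151, 223 and 190 CPM, where Anxa1 was lowest of WT. Ltf, Ngp, Camp, Mpo and Elane were lowest of WT there, and S100a8, S100a9 and Ly6g in WT replicate 3. S100a8 and S100a9 were the largest parts of the sum, at 945 and 1471 CPM in WT replicate 1. All 12 marker genes had a log2 fold change below 0, against 51.4% of all tested genes. The median of the 12 was -1.04, and no marker was at 0 in any library. The alarmin gene S100a9 was at -1.06 (SE 0.21). In edgeR's test 0 of the 12 passed. An unadjusted p under 0.05 with lower values was found for 6 of them and for 3.07% of all tested genes. DESeq2 called 5, against 57 of all 16089 tested genes, and limma-voom called 0. All Fpr2KO values lay below all WT values for 5 markers, S100a8, S100a9, Ly6g, Mmp9 and Retnlg. The 6 mast cell and basophil marker genes had log2 fold changes below 0 as well, all with an edgeR unadjusted p under 0.05 and none called by edgeR or limma-voom, and DESeq2 called 1, the histidine decarboxylase gene Hdc. Their median was -1.32, and their summed level was between 71.1 and 125 CPM in WT and between 26.8 and 47.2 CPM in Fpr2KO. Most of that sum was Hdc, with between 43.3 and 110 CPM in WT and between 16.6 and 31.7 CPM in Fpr2KO. The groups overlapped in Mcpt8, Prss34 and Ms4a2. They did not overlap in 3 genes, Cpa3, Fcer1a and Hdc, where 3.18% of all tested genes were likewise apart with lower values. The part of either cell type in the Anxa1 values was not tested. In bulk spleen RNA, fewer cells of a type and less RNA per cell cannot be told apart.

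**Figure D2:**
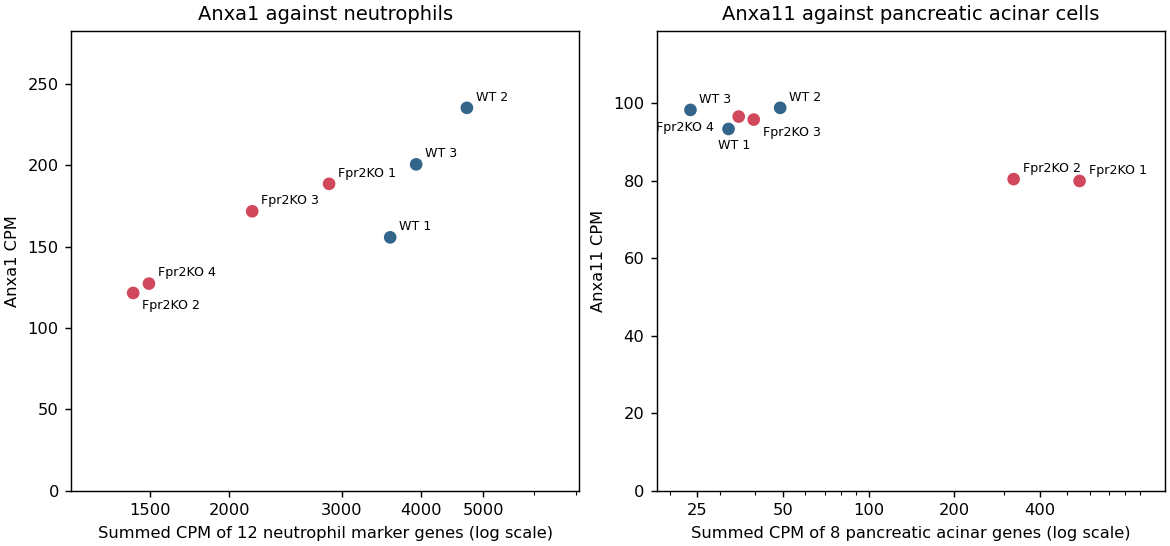
Level of Anxa1 in CPM against the summed CPM of 12 neutrophil marker genes (left), and of Anxa11 against that of 8 pancreatic acinar genes (right), 1 labelled point per library, with summed levels on log axes. Anxa1 runs from 122 to 235 CPM while the neutrophil sum runs from 1413 to 4715 CPM, and the 2 lowest Anxa11 values belong to Fpr2KO replicates 1 and 2.

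Genes like Anxa1 were sought among 12647 tested genes averaging 1 CPM or more. Genes of the lists used here, the neutrophil markers included, were left out. So were genes with provisional or pseudogene names, and immunoglobulin and T cell receptor segments. In that set Itgb2l, Chil3 and Lbp had the pattern most like that of Anxa1. Their Pearson correlation with Anxa1 in log2 CPM over the 7 libraries was 0.98, 0.98 and 0.97, a description over values that share libraries and depth. Itgb2l encodes a beta integrin-like protein, Chil3 a chitinase-like protein of myeloid cells and Lbp a lipopolysaccharide-binding protein. Chil3 had 195, 517 and 329 CPM in WT replicates 1 to 3, and 300, 123, 197 and 144 CPM in Fpr2KO replicates 1 to 4. Its libraries stood in the same order as those of Anxa1.

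Anxa2 (ENSMUSG00000032231, chr9:69453620-69491795, plus strand) encodes the annexin that pairs with S100A10 at the plasma membrane, and its mean level was nearly the same in both groups. It had 240, 202 and 210 CPM in WT replicates 1 to 3 and 208, 174, 238 and 250 CPM in Fpr2KO replicates 1 to 4. The lowest and the highest library were both Fpr2KO. The log2 fold change was 0.00375 (SE 0.13, 95% interval -0.28 to 0.29, edgeR adjusted p = 1.0), and it was 0.18 without both libraries with pancreatic transcripts. Its partner gene S100a10 averaged 129 ± 21.3 CPM in WT (SD, n = 3) and 138 ± 13.4 in Fpr2KO (SD, n = 4), with a log2 fold change of 0.10 that did not pass. The summed level of 8 smooth muscle and mesothelial marker genes, of the splenic capsule and trabeculae, was also lowest in Fpr2KO replicate 2 and highest in Fpr2KO replicate 4, at 237 and 465 CPM. Single genes of that list differed. Acta2, Des and Myh11 were highest in WT replicate 1, at 112, 111 and 50.3 CPM. Tagln and the mesothelial genes Msln, Upk3b, Krt19 and Wt1 were highest in Fpr2KO replicate 4. Acta2, Des and Tagln were lowest in Fpr2KO replicate 2, and the others in other libraries. The part of these cells in the Anxa2 values was not tested.

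Anxa3 (ENSMUSG00000029484, chr5:96793339-96845966, plus strand), whose product is known from neutrophil granule membranes, had another order of libraries than the neutrophil sum. It had 35.9, 42.3 and 43.6 CPM in WT replicates 1 to 3 and 33.4, 38.5, 35.2 and 41.1 CPM in Fpr2KO replicates 1 to 4. Fpr2KO replicate 4, with the second lowest neutrophil sum, had one of the 3 highest Anxa3 levels, and the groups overlapped. Its log2 fold change was -0.13 (SE 0.11, 95% interval -0.37 to 0.10), and -0.0866 without both libraries with pancreatic transcripts. Anxa4 (ENSMUSG00000029994, chr6:86736840-86793584, minus strand) encodes an annexin best known from epithelia. It had 40.6, 42.3 and 50.1 CPM in WT replicates 1 to 3 and 37.9, 44.6, 41.4 and 44.2 CPM in Fpr2KO replicates 1 to 4. Its highest level was in WT replicate 3, and the other 6 libraries overlapped. Its log2 fold change was -0.08 (SE 0.10, 95% interval -0.31 to 0.15), 0.02 when WT replicate 3 was left out, and -0.0477 without both libraries with pancreatic transcripts.

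Anxa5 (ENSMUSG00000027712, chr3:36448923-36475894, minus strand) was the only one of the 9 whose groups did not overlap. Its product binds phosphatidylserine on dying cells and is widely used to stain them. It had 175, 163 and 169 CPM in WT replicates 1 to 3 and 142, 149, 162 and 162 CPM in Fpr2KO replicates 1 to 4. The groups were apart by less than 1 CPM, between 162.8 in WT replicate 2 and 162.2 in Fpr2KO replicate 4. Groups did not overlap in 5.91% of all tested genes, with 3.18% lower and 2.73% higher in Fpr2KO. The log2 fold change was -0.14 (SE 0.08, 95% interval -0.32 to 0.05, edgeR unadjusted p = 0.126), and -0.05 without both libraries with pancreatic transcripts.

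Anxa11 (ENSMUSG00000021866, chr14:25842156-25886804, plus strand), known for tethering RNA granules to lysosomes, was low in the same libraries. It had 93.4, 98.8 and 98.3 CPM in WT replicates 1 to 3 and 79.9, 80.4, 95.8 and 96.6 CPM in Fpr2KO replicates 1 to 4. The 2 libraries with pancreatic transcripts were the 2 lowest, and Fpr2KO replicates 3 and 4 lay within the range of the WT libraries. The log2 fold change was -0.13 (SE 0.10, 95% interval -0.35 to 0.08), and -0.00430 without both. Anxa5 was likewise lowest in Fpr2KO replicates 1 and 2, whereas Anxa7 was lowest in replicate 2 and not in replicate 1.

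Anxa6 and Anxa7 completed the annexins with intervals that included 0. Anxa6 (ENSMUSG00000018340, chr11:54979108-55033445, minus strand) encodes an annexin with a duplicated core. It had 297, 244 and 271 CPM in WT replicates 1 to 3 and 224, 268, 265 and 286 CPM in Fpr2KO replicates 1 to 4. Its log2 fold change of -0.06 (SE 0.10) was 0.03 without both libraries with pancreatic transcripts. Anxa7 (ENSMUSG00000021814, chr14:20455260-20480133, minus strand) is known for promoting membrane fusion. It had 130, 116 and 121 CPM in WT replicates 1 to 3 and 120, 99.5, 117 and 115 CPM in Fpr2KO replicates 1 to 4. Its log2 fold change was -0.12 (SE 0.09, 95% interval -0.32 to 0.08). It was -0.0628 when Fpr2KO replicate 2 was left out and -0.0762 without both libraries with pancreatic transcripts. Fpr2KO replicate 2 was the lowest library for Anxa7, and the other Fpr2KO libraries were within or just below the range of WT.

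**Figure D3:**
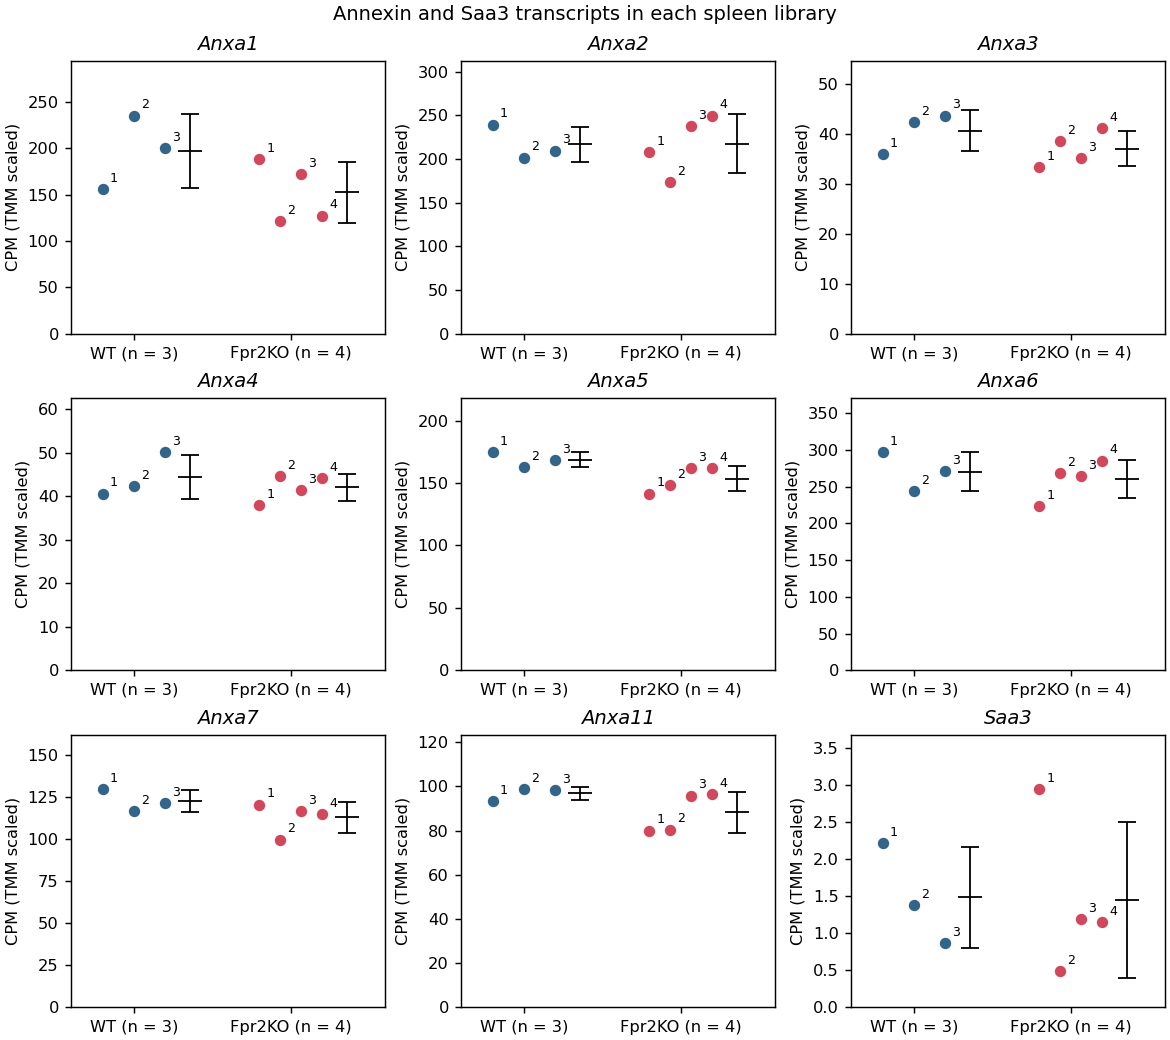
CPM of each gene (y axis, from 0) in the 3 WT and 4 Fpr2KO libraries, with replicate numbers beside the points and the mean ± SD as bars to their right. The groups overlap in 8 of the 9 genes, and in Anxa5 they are apart by less than 1 CPM.

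The annexins differed in how stable their levels were. The highest library was 1.94 times the lowest for Anxa1, 1.44 times for Anxa2 and between 1.23 and 1.33 times for the other 6 annexins. The median of this ratio was 1.33 over the 10198 tested genes averaging 10 CPM or more. Anxa1 and Anxa2 were thus above that median and the other 6 below it. Fpr2KO replicate 2 was the lowest library for Anxa1, Anxa2 and Anxa7. Fpr2KO replicate 1 was the lowest for Anxa3, Anxa4, Anxa5, Anxa6 and Anxa11. These are the libraries with pancreatic transcripts, and the summed level of the 9 genes was 1037 and 976 CPM in them, against 1127 and 1123 CPM in the other Fpr2KO libraries and between 1145 and 1169 CPM in WT. The part of pancreatic RNA in these sums was not tested.

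**Figure D4:**
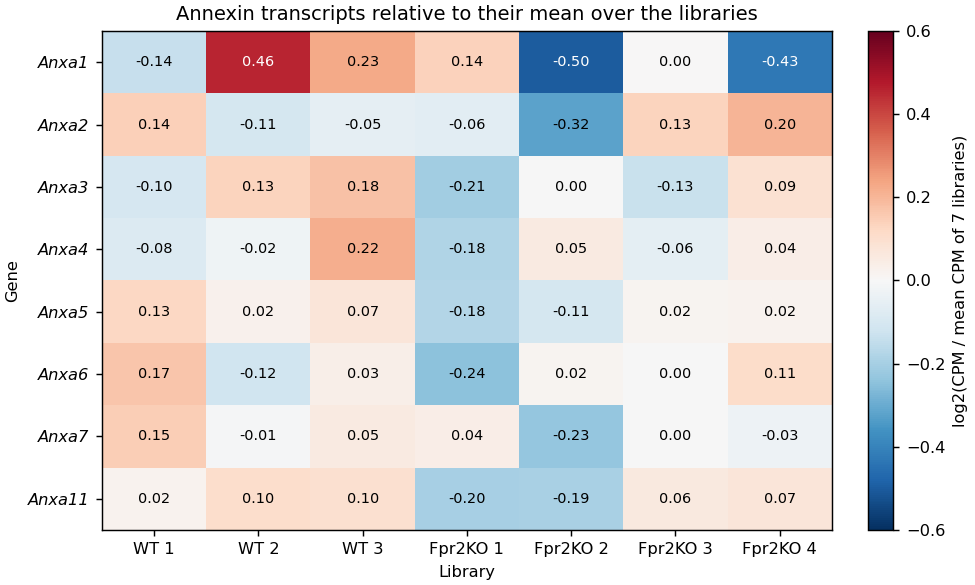
Level of each annexin transcript (rows) in each library (columns) as log2 of its CPM over its mean CPM in the 7 libraries, printed in each cell. Anxa1 has the widest spread, from -0.50 in Fpr2KO replicate 2 to 0.46 in WT replicate 2.

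Levels were compared between genes as CPM per 1000 bases of annotated exon. Anxa6 and Anxa5 stood highest at 90.4 ± 8.41 and 90.1 ± 6.40 (SD over 7 libraries), and Anxa1 and Anxa2 followed at 58.9 ± 14.0 and 58.2 ± 7.14. Anxa11 had 22.2 ± 1.98, Anxa7 19.5 ± 1.52, Anxa3 10.6 ± 1.07 and Anxa4 9.26 ± 0.830 on this scale, and Saa3 0.560 ± 0.323. The ranges over the 7 libraries did not overlap between Anxa2 and Anxa11, between Anxa7 and Anxa3, and between Anxa4 and Saa3. Within each library Anxa5 was also above Anxa1 and Anxa3 above Anxa4, in 7 of 7, although their ranges overlapped. With the length of 1 coding transcript per gene in place of all exons, the means fell into the same 4 groups of genes. The order then changed within the upper groups, with Anxa2 highest at 150, Anxa5 at 92.5 below Anxa6 and Anxa1, and Anxa7 above Anxa11.

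**Figure D5:**
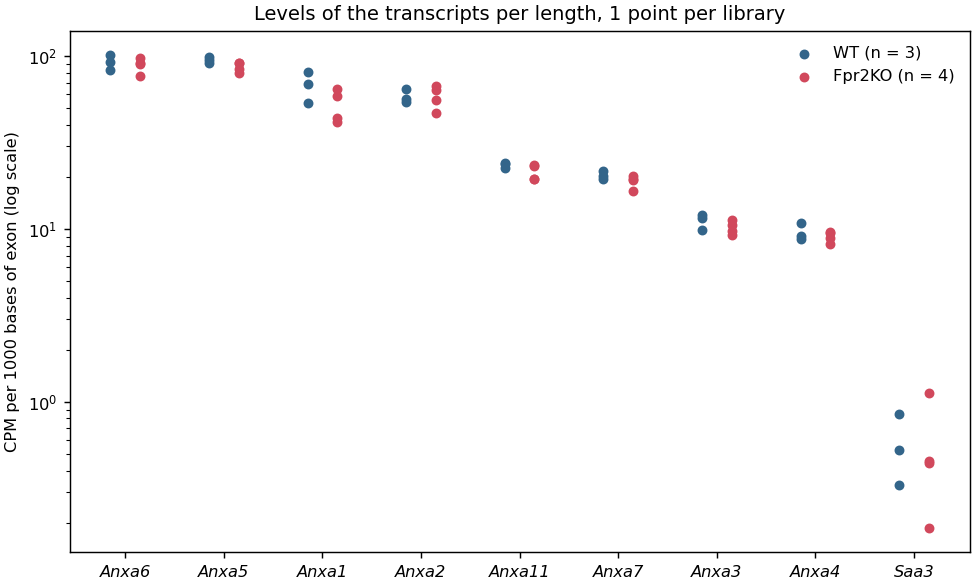
Level of each gene as CPM per 1000 bases of annotated exon (y axis, log scale), 1 point per library, with genes ordered by their mean. The 4 tiers run from Anxa6 at 90.4 to Saa3 at 0.560, and WT and Fpr2KO points overlap in height within each gene except Anxa5.

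Saa3 (ENSMUSG00000040026, chr7:46711998-46715700, minus strand), the serum amyloid A gene known for expression outside the liver, was close to the limit of detection. It had 33, 21 and 14 reads in WT replicates 1 to 3 and 50, 9, 20 and 22 reads in Fpr2KO replicates 1 to 4. These were 2.21, 1.38 and 0.862 CPM in WT and 2.94, 0.483, 1.18 and 1.15 CPM in Fpr2KO. The highest and the lowest library were the pair with pancreatic transcripts, Fpr2KO replicates 1 and 2, and their 95% counting intervals (exact Poisson, counting error only) of 2.19 to 3.88 and 0.221 to 0.917 CPM did not overlap. The log2 fold change was -0.05 (SE 0.56, 95% interval -1.32 to 1.23), which allows between 0.399 and 2.35 times the WT level. It was -0.33 without both Fpr2KO replicates 1 and 2, -0.64 when only Fpr2KO replicate 1 was left out and 0.36 when WT replicate 1 was. A change of 2-fold in Saa3 in either direction lies within the interval of the main fit and was thus not excluded. Saa1, Saa2 and Saa4 had 0 reads in all 7 libraries, which allows up to 0.201 CPM in the shallowest one by a floor of 3 counts.

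The region upstream of Saa3 is shown because its known regulators include C/EBP factors, whose genes were measured in the same libraries. It spans chr7:46715701-46715926 on GRCm38, minus strand, taken from the RefSeq promoter table up to the first base of the GENCODE gene, and is printed 5′ to 3′ with the match to a C/EBP motif in capitals.
Saa3 upstream: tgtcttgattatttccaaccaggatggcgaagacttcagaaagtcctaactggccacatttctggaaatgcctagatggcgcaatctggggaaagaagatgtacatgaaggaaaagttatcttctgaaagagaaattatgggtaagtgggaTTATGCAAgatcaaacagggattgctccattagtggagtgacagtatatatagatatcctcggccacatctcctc
The motif searched was TTGCNNAA, on both strands of the whole promoter window of 300 bases, and 10.8% of 32851 mouse windows hold it. A TATAAA box and the NF-kB consensus were also searched and had 0 matches, against 13.6% and 8.46% of windows. A match is a description of these letters and not a binding site.

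Genes of the acute phase response, of which Saa3 is one, gave 0 calls among 7 tested of 8 (edgeR, DESeq2 and limma-voom). In edgeR 3.07% of all tested genes had an unadjusted p under 0.05 with lower values, and so had 3 of these 7. They were Socs3, a feedback inhibitor of cytokine signalling (log2 fold change -0.66, SE 0.17, edgeR adjusted p = 0.625), Cebpd (-0.88, SE 0.32), which encodes a C/EBP factor, and the lipocalin gene Lcn2 (-1.03, SE 0.37), which neutrophils also express. Cebpb, which encodes another C/EBP factor, averaged 29.9 ± 5.36 CPM over the WT libraries (SD, n = 3) and 27.3 ± 4.89 over the Fpr2KO libraries (SD, n = 4). The median of the list was -0.41 and that of all tested genes -0.00486. Cebpd had 71.4 CPM in WT replicate 1 and 38.7 and 31.9 in WT replicates 2 and 3, and leaving out WT replicate 1 moved it to -0.46 and Socs3 to -0.37.

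Among 8 genes for annexin-binding proteins and cytosolic phospholipase A2, 0 passed in edgeR, DESeq2 or limma-voom, 4 were at lower and 4 at higher fitted values, and the median was -0.02. In 2 of them the edgeR unadjusted p was under 0.05, and in both the groups did not overlap. Over all tested genes, 4.98% had such a p in edgeR, and 3.18% had groups that did not overlap with lower values in Fpr2KO. S100a11, the annexin A1 partner, had 218, 217 and 208 CPM in WT replicates 1 to 3 and 167, 148, 189 and 186 CPM in Fpr2KO replicates 1 to 4. Every Fpr2KO library was below every WT library, by a log2 fold change of -0.32 (SE 0.10, edgeR unadjusted p = 0.00833, adjusted p = 0.753). S100a6, whose product binds annexin A11, had 116, 93.1 and 97.7 CPM in WT and 75.6, 67.0, 78.0 and 92.5 CPM in Fpr2KO (-0.39, SE 0.12, edgeR adjusted p = 0.815). The S100a6 groups lay close, with 93.1 CPM in WT replicate 2 and 92.5 CPM in Fpr2KO replicate 4. S100a11 and S100a6 were both lowest in Fpr2KO replicate 2. Without both libraries with pancreatic transcripts S100a11 was at -0.19 and S100a6 at -0.26.

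Other genes of the receptor pathway gave 1 call among 6 tested of 7, Fpr2 itself. Camp, which encodes the cathelicidin ligand of the receptor and is also a neutrophil marker, had 43.9, 207 and 171 CPM in WT replicates 1 to 3 and 133, 54.4, 74.2 and 37.9 CPM in Fpr2KO replicates 1 to 4. Its groups overlapped, with a log2 fold change of -0.91 (SE 0.67) that lay between -1.34 and -0.52 with 1 library left out, the latter without WT replicate 2. Plaur, the urokinase receptor gene, was at -0.19 (SE 0.09) and Fpr1 at -0.33 (SE 0.22). Neither passed, and leaving out WT replicate 1 moved them to -0.12 and 0.02. Hebp1 and App, sources of further peptide ligands, were at 0.02 and -0.02.

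Anxa1 is a textbook glucocorticoid-induced gene, and 7 other such targets were read beside it. None passed in edgeR, DESeq2 or limma-voom, and 2 had an edgeR unadjusted p under 0.05. Over all tested genes 4.98% had such a p, and 3.07% had it with lower values. All 7 had a log2 fold change below 0, with a median of -0.51, where 51.4% of all tested genes were below 0. Fkbp5, a chaperone gene of the glucocorticoid receptor, had 235, 240 and 94.1 CPM in WT replicates 1 to 3 and 124, 92.3, 71.6 and 82.4 CPM in Fpr2KO replicates 1 to 4 (log2 fold change -1.04, SE 0.37, edgeR adjusted p = 0.950). Its order of libraries was not that of Anxa1, since WT replicate 3 was low in Fkbp5 and second highest in Anxa1. Klf9, a transcription factor gene, was at -0.49 (SE 0.17), and at -0.31 when WT replicate 1 was left out. The annexins outside the 9 were scarce. Anxa9 averaged 3.86 ± 1.01 CPM over the WT libraries (SD, n = 3) and 4.26 ± 0.837 over the Fpr2KO libraries (SD, n = 4), Anxa8 had between 1 and 16 reads per library and was not tested, and Anxa10 and Anxa13 had 0 reads in all 7 libraries.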

How the data were processed

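The deposited table holds the authors' raw counts of reads per Ensembl gene. FastQC 0.10.1, HTSeq 0.10.0 and the build mm10 (GRCm38) are named in the submitters' processing notes. Aligner, annotation release and strand setting: not given in the sources used here. GENCODE M21 gave symbols, positions and exon lengths, and 52133 of 55414 gene IDs matched. Python 3.11.15 was used for sequences and R 4.3.3 for tests.

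Fpr2KO (n = 4) and WT (n = 3) were compared with edgeR 4.0.16 (quasi-likelihood F test, robust, TMM scaling, filterByExpr at its defaults) over all 16089 tested genes, with calls at a Benjamini-Hochberg adjusted p below 0.05. Standard errors were taken from the estimate and its F statistic. The test was checked on simulated data, with 50 changed genes at each fold. It recovered 12% of changes of 1.5-fold, 66% of 2-fold, 98% of 3-fold and 94% of 4-fold, with 10 false among 145 calls. The changed genes were drawn only from those above a minimum mean count. The real comparison gave 6 calls, and with fewer calls the adjusted p asks for a smaller unadjusted p. These shares can therefore be too high for the real data. Alternatives were other scalings, DESeq2 1.42.0, limma-voom (3.58.1), other filters, samples left out and a replicate block. The text names all 9 genes, Fpr2, list genes with the smallest p or a bearing on a member, and the 3 genes most correlated with Anxa1. The members and lists were chosen with earlier results of these data known.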

Additional observations from a re-analysis of the deposited data

Results flagged for a closer look

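Anxa9 stood apart in Fpr2KO replicate 2, at 3.005 CPM against 4.592 to 4.739 CPM in the other 3 Fpr2KO libraries. The gap to the nearest library was 0.915 of the range of the group, above the critical value of Dixon's test for 4 samples. WT replicate 3 was as low, at 2.71 CPM. Cebpd stood apart in Fpr2KO replicate 3, at 35.07 CPM against 21.19 to 23.36 CPM in the other 3, with a gap of 0.844 of the range. It was within the WT values of 31.9 to 71.4 CPM there. These were 2 of 58 genes and marker sums looked at in this way, where chance flags about 1 in 20 groups.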

How the results depend on the processing

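No alternative called any of the 9 genes. Anxa1, Anxa3, Anxa5, Anxa7 and Anxa11 kept log2 fold changes below 0 in all 17 alternatives. Leaving out 1 library gave -0.0695 to 0.10 for Anxa2, -0.14 to 0.0206 for Anxa4, -0.12 to 0.0226 for Anxa6, -0.64 to 0.36 for Saa3, -0.0615 to 0.28 for Anxa9, -0.49 to 0.0221 for Fpr1 and -0.00338 to 0.23 for S100a10, all of which thereby changed sign. Anxa6 was at 0.0290 without both libraries with pancreatic transcripts. Over all genes, 6 calls became 57 with DESeq2, 21 without a low count filter and between 5 and 15 with 1 library left out, the highest being 15 without WT replicate 3 and 10 without WT replicate 1.

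With the replicate number as a block, a fit that leaves out Fpr2KO replicate 4, there were 2 calls, and 435 genes had an unadjusted p under 0.05 against 802. Anxa2 was at -0.0775 and Anxa1 at -0.30 under the block. Samples with equal numbers did not deviate together (r of 0.08, -0.43 and -0.07 across 16089 genes), so the numbers were not taken as pairs. The cause of these shifts was not tested. Depth limits Saa3, with 9 to 50 reads per library.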
